A study of Arabidopsis thaliana with 28 samples.

Results

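Isocitrate lyase (ICL, locus AT3G21720 on chromosome 3) was followed in roots of Arabidopsis thaliana seedlings under lowered oxygen. One probe set stood for the gene, of 13513 probe sets that the array annotation ties to 1 gene (13356 genes in all). It was taken up because its signal was known to be high after 48 h of lowered oxygen, so its values at 48 h are given as a description, without a test.

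Isocitrate lyase splits isocitrate into succinate and glyoxylate. It opens the glyoxylate cycle, in which malate synthase then joins glyoxylate to acetyl-CoA, so that carbon bypasses the steps of the tricarboxylic acid cycle that release CO2. In plants the cycle is known mostly from peroxisomes of oilseed seedlings, where it turns stored lipid into precursors of sugar.

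Seedlings (ecotype given as col2) grew on vertical agar plates with 1% sucrose in a cycle of 12 h light and 12 h dark, and 10 days after germination they were moved to continuous darkness under a gas stream. The stream held 1%, 4%, 8% or 21% oxygen, 350 ppm CO2 and nitrogen, and whole roots were frozen after 0.5, 2 or 48 h. The air groups (21%) were thus kept in the same darkness and on the same sugar medium as the groups of lowered oxygen. Biotin-labelled RNA of each sample was hybridised to 1 array, which gave 28 arrays in 12 groups, with 3 arrays in each air group and at 8% for 48 h, and 2 arrays in each of the other 8 groups.

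Each array carries a replicate letter from A to G in its title. Nothing in the labels says that letters are separate cultures, so p-values measure the spread between these samples only. The treatment text of the 8% array of letter B at 48 h also carries the word control, but its title and stated oxygen level both give 8%, where it was kept. The values are MAS5 signals, a linear intensity in arbitrary units scaled to a trimmed mean of 100 on every array. No detection calls were used, and 6 units serve below as a mark of very dim signal (the 20th percentile over the whole data set, in whole units). The number of arrays limits the precision of each value.

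The labelled tissue was checked against lists of marker genes. Of 10 root markers only the root hair expansin EXPA7 had a named probe set, with 14.4 to 71.6 units in the lowered-oxygen arrays of 48 h and 27.9 to 71.6 in air at 48 h. Of 9 markers of green tissue only the Rubisco activase RCA was measured, with 29.8 to 167.7 units under lowered oxygen and 28.3 to 106.9 in air at 48 h. Of 17 seed and embryo markers the oleosins OLEO3 and OLEO4, proteins of seed oil bodies, were measured. Their summed signal was 18.8 to 57.1 units under lowered oxygen and 23.2 to 38.0 in air at 48 h. At 48 h the ranges of all 3 lists overlapped between lowered oxygen and air. By letter, RCA at 48 h had 101.3 to 167.7 units on the arrays of letter F and 28.3 to 59.7 on those of A and B. In letter F it had 167.7 units at 1%, 166.0 at 4% and 101.3 at 8%, against 106.9 in air. The part of this split in the ICL values was not tested. At the shorter durations the ranges of the 3 lists overlapped with air too, group by group, except in 3 cases. EXPA7 at 2 h had 53.9 to 57.7 units at 1% and 88.4 to 90.5 at 4%, against 93.3 to 114.7 in air. RCA at 0.5 h had 63.5 to 97.0 units at 1%, against 107.5 to 236.6 in air. Without detection calls, the signals of these markers do not show whether a marker was expressed on an array. In whole roots, fewer cells of a type and less RNA per cell cannot be told apart.

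After 48 h, ICL was higher in every array of lowered oxygen than in every array of air. The 7 lowered-oxygen arrays held 13.3 to 442.2 units (median 149.1), against 1.21 to 7.90 units in the 3 air arrays.

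At 1% oxygen for 48 h, ICL had 254.0 units in array A and 442.2 in array F. At 4% it had 149.1 units in array B and 90.15 in array F. At 8% it had 13.3 units in array A, 20.4 in array B and 173.9 in array F. In air at 48 h it had 7.90 units in array A, 1.47 in array B and 1.21 in array F. Both 1% arrays were above all others of the study, 8% arrays A and B lay under both 4% arrays, and 2 of the 3 air arrays lay under the mark of 6 units. For comparison, 3.38%, 5.19% and 1.23% of all probe sets had every array at 1%, 4% and 8% above every air array.

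As group means, ICL stood at 348.1 ± 133 units at 1%, 119.6 ± 41.7 at 4% and 69.2 ± 90.8 at 8%, against 3.53 ± 3.79 in air (SD, n = 2, 2, 3 and 3). On the scale of log2(signal + 6), the differences from air were 5.23 ± 1.01 at 1%, 3.75 ± 1.01 at 4% and 2.31 ± 0.907 at 8% (SE of the model). These correspond to 37.6-fold, 13.4-fold and 4.96-fold, and the 6 units added make such folds smaller than the ratios of the signals. Among the log2 differences of the 13513 probe sets, ICL ranked 1 at 1%, 4 at 4% and 1 at 8%, which is a description because the gene was chosen on these arrays. The value at 8% leaned on array F, since without it the difference was 1.31, and without array B, whose text also reads control, it was 2.70.

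**Figure D1:**
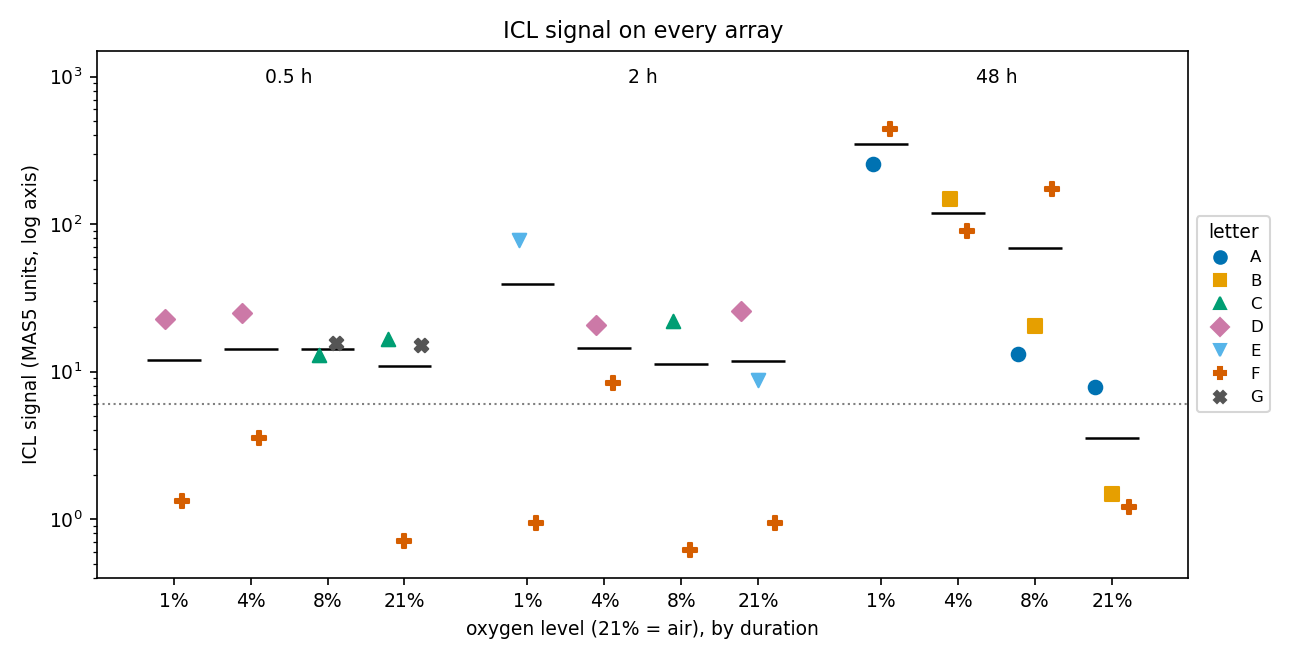
ICL signal (MAS5 units, log axis) on each of the 28 arrays, by oxygen level (1%, 4%, 8%, 21% = air) within each duration, with symbols for the replicate letter, bars at group means and a dotted line at 6 units. The 7 arrays of lowered oxygen at 48 h sit between 13.3 and 442.2 units, above the 3 air arrays of 48 h, while arrays of letter F are the lowest of their group at 0.5 and 2 h.

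The plot of every array shows that the shorter exposures held no such separation. At 0.5 h, ICL had 22.7 units (D) and 1.32 (F) at 1% oxygen, 25.1 (D) and 3.53 (F) at 4%, and 12.9 (C) and 15.5 (G) at 8%. In air at 0.5 h it had 16.6 units (C), 0.708 (F) and 15.3 (G). Every lowered-oxygen group overlapped air at 0.5 h.

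The group means at 0.5 h were 12.0 ± 15.1 units at 1%, 14.3 ± 15.3 at 4% and 14.2 ± 1.85 at 8%, against 10.9 ± 8.82 in air (SD, n = 2, 2, 2 and 3). The log2 differences from air were −0.03, 0.22 and 0.45, each with an SE of 1.01, and none passed the limma test (adjusted p of 1 in all 3 comparisons, with 0.0518%, 0.0444% and 0.0148% of all probe sets called higher). Each difference was smaller than its SE.

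At 2 h, ICL had 77.8 units (E) and 0.938 (F) at 1%, 20.6 (D) and 8.40 (F) at 4%, and 21.9 (C) and 0.613 (F) at 8%. In air at 2 h it had 25.7 units (D), 8.81 (E) and 0.945 (F). Every lowered-oxygen group again overlapped air, and the 1% array of letter E was the highest ICL value of the 18 arrays of 0.5 and 2 h.

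The group means at 2 h were 39.4 ± 54.3 units at 1%, 14.5 ± 8.65 at 4% and 11.3 ± 15.1 at 8%, against 11.8 ± 12.7 in air (SD, n = 2, 2, 2 and 3). The log2 differences of 0.70, 0.40 and −0.13 (SE 1.01 each) did not pass the limma test, with adjusted p of 0.999, 1 and 1. At the same duration 0.34%, 0.126% and 0.0222% of all probe sets were called higher.

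In the order of the 12 group means, 1% at 48 h came first, 4% at 48 h next and 8% at 48 h after it. Only the first of these steps separated neighbours, with no overlap between the 1% arrays (254.0 to 442.2) and the 4% arrays (90.15 to 149.1). All the other neighbours overlapped, from 8% at 48 h (69.2 units) through 1% at 2 h (39.4) down to air at 48 h (3.53), which came last. The order by oxygen level did not hold within every letter, since letter F at 48 h had 442.2 units at 1%, 90.15 at 4% and 173.9 at 8%, against 1.21 in air.

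The replicate letter moved with ICL at the short durations. The 7 arrays of letter F at 0.5 and 2 h had 0.613 to 8.40 units (median 0.945), and the 11 arrays of other letters had 8.81 to 77.8 (median 20.6). These ranges did not overlap, whatever the oxygen level, and 6 of the 7 arrays of letter F lay under 6 units against none of the other 11. The share of all probe sets that split by letter in this way is not given here, so the split is not shown to be particular to ICL. What letter F stands for is not given in the sources used here. The median signal of all probe sets was 34.8 to 39.2 units on the letter F arrays and 34.2 to 43.5 on the others. RCA had 94.7 to 236.6 units on the letter F arrays and 35.4 to 199.1 on the others, and the summed oleosin signal was 22.4 to 32.0 and 14.1 to 56.6. The part of any of these in the ICL values was not tested. At 48 h the letter F arrays were the highest of their groups at 1% and 8%. They were the lowest of their groups at 4% (90.15 units) and in air (1.21).

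Same-letter pairs set a lowered-oxygen array against the air array of its own letter and duration. At 48 h all 7 pairs were higher under lowered oxygen, 6 of them by more than 1 on the log2(signal + 6) scale. At 1% the differences were 4.22 (A, 254.0 against 7.90 units) and 5.96 (F, 442.2 against 1.21). At 4% they were 4.38 (B, 149.1 against 1.47) and 3.74 (F, 90.15 against 1.21). The smallest of these 4 was that of 4% array F, and the largest was that of 1% array F. At 8% they were 0.47 (A, 13.3 against 7.90), 1.82 (B, 20.4 against 1.47) and 4.64 (F, 173.9 against 1.21).

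At 0.5 h, 3 of 4 pairs were higher under lowered oxygen, with differences from −0.26 to 0.51. At 2 h, 2 of 5 pairs were higher, with differences from −0.25 to 2.50. In letter F both arrays lay under 6 units at 1% and 4% for 0.5 h, and at 1% and 8% for 2 h. Values that dim carry no order, so the direction of those pairs says nothing. The pair at 2.50 was letter E at 1%, with 77.8 units at 1% against 8.81 in air, while letter F at 1% gave 0.938 against 0.945. Markers of other tissues were also higher in that E pair, with summed oleosins of 56.6 units at 1% against 17.3 in air. RCA had 199.1 against 86.2 there, and the root marker EXPA7 53.9 against 103.5. In the F pair at 1% the oleosins had 24.9 against 24.3, RCA 118.6 against 118.9 and EXPA7 57.7 against 114.7. OLEO3 alone had 12.6 to 14.0 units at 1% for 2 h and 12.25 to 14.3 in air. OLEO4 had 10.9 to 44.0 and 5.03 to 13.7. The part of these markers in the ICL difference was not tested. The 3 arrays without an air array of their letter were the D arrays of 1% and 4% at 0.5 h and the C array of 8% at 2 h.

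**Figure D2:**
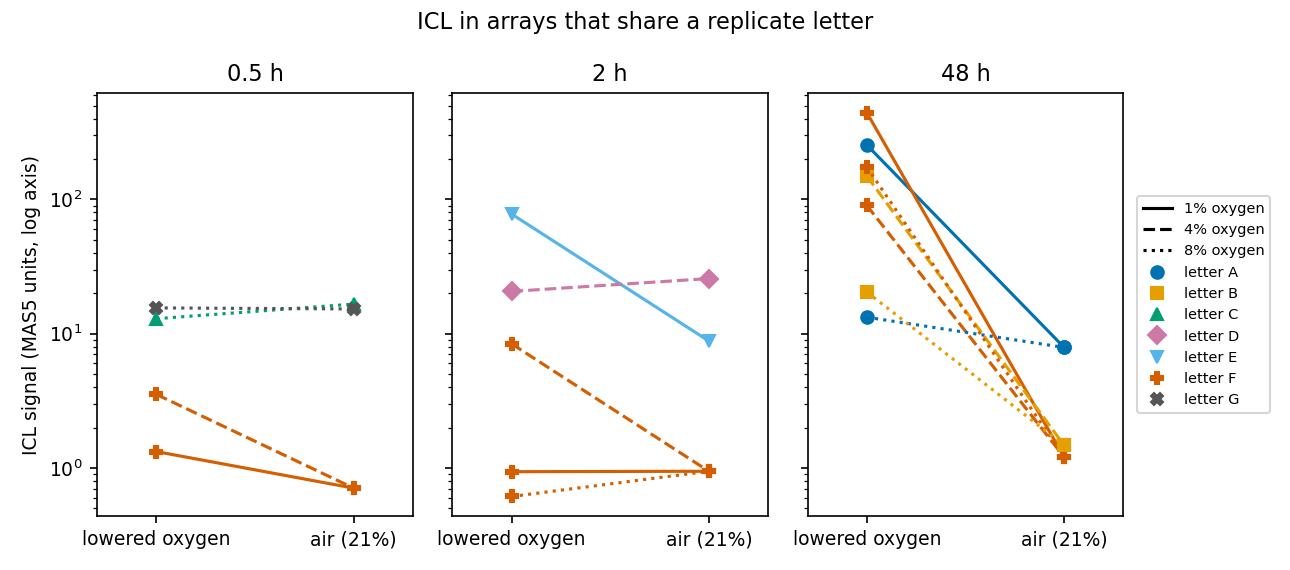
ICL signal (MAS5 units, log axis) in arrays that share a replicate letter, with lowered oxygen on the left and air on the right of each panel (0.5, 2 and 48 h), 1 line per pair, line type for oxygen level, colour and symbol for letter. All 7 lines of 48 h are higher on the side of lowered oxygen, while at 0.5 and 2 h 5 of the 9 lines are. Some letter F lines of 0.5 and 2 h have both ends under 6 units, where values carry no order.

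The level in air was set against time in the dark. In air ICL had 7.90, 1.47 and 1.21 units at 48 h (A, B, F) and 25.7, 8.81 and 0.945 units at 2 h (D, E, F). The 2 durations overlapped, and the log2 difference of 48 h over 2 h was −0.71 ± 0.907 (SE), or 1.1 with the letter as a block. Only letter F was present in air at both durations, with 1.21 units at 48 h and 0.945 at 2 h, both under 6 units.

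Genes known to rise in darkness or when sugar runs short were taken as a list of 22, of which 5 were measured. The list was chosen with earlier results of these data known, which limits the tests below. Between 48 and 2 h in air, 2 of the 5 were higher and none was lower (2.36% and 3.11% of all probe sets were called higher and lower), with a median log2 difference of 0.81 against 0.09 for all probe sets. LKR, which starts lysine breakdown, was higher by 1.57 ± 0.243 (limma adjusted p = 0.00122), a call kept when any single air array of 2 or 48 h was left out. IVD, isovaleryl-CoA dehydrogenase of leucine breakdown, was higher by 1.13 ± 0.305 (adjusted p = 0.034), a call lost when any single one of these arrays was left out (0.0523 to 0.15). Under lowered oxygen against air at 48 h none of the 5 was called at 1%, 4% or 8%, with medians of −0.34, 0.05 and 0.05 beside −0.11, 0.01 and 0.00 for all probe sets. At 1% LKR stood at −0.98 ± 0.272 (limma adjusted p = 0.421), and with the letter as a block it was called lower (−0.95, adjusted p = 0.0331). Without 1% array F it stood at −0.52, and over all single arrays left out it ranged from −1.44 to −0.52. D2HGDH, which oxidises 2-hydroxyglutarate, stood at −0.73 ± 0.297 (adjusted p = 0.868).

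The measured enzymes around ICL did not show a difference of its size. Of the 10 genes of the glyoxylate cycle list ICL alone had a probe set with its own name, so malate synthase and the other enzymes of the cycle are not analysed here, nor is the gluconeogenic gene PCK1. Of 79 genes of the cycle, of gluconeogenesis, fatty acid beta-oxidation, isocitrate and glyoxylate metabolism, peroxisome import and related enzymes of citrate, acetate and succinate, 25 were measured, ICL included. None of the other 24 was called higher or lower in any of the 9 comparisons with air. Among them, IDH3 and IDH-IV lay under 6 units on every array, where a missing call says little. The 79 genes include 13 that were added after it was seen which genes the array names, without sight of their values.

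At 1% oxygen for 48 h, where 0.074% of all probe sets were called higher and 0.0222% lower, the 24 genes had a median log2 difference of −0.03, with a range from −0.80 to 0.30. At 4% their median was −0.05 (−0.73 to 0.52) and at 8% 0.00 (−0.64 to 0.72), where 0.037% and 0% of all probe sets were called higher. The ICL differences on the same scale were 5.23, 3.75 and 2.31.

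Between 48 and 2 h in air, 4 of the 24 were lower and none was higher, where 3.11% and 2.36% of all probe sets were called lower and higher. SDH1-1, the flavoprotein subunit of succinate dehydrogenase, was lower (−1.26, limma adjusted p = 0.0055), a call kept when any single air array of 2 or 48 h was left out. SDH1-2 (−0.95) and ACLA-2, a subunit of ATP-citrate lyase (−0.79), were lower too. Each of these calls was lost without at least 3 of those arrays, left out 1 at a time. SDH2-1 (−0.69) was called lower as well, and whether its call holds without single arrays is not settled here.

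Isocitrate is also the substrate of isocitrate dehydrogenases, which carry it through the tricarboxylic acid cycle or make NADPH from it. Of 8 such genes 6 were measured (IDH3, IDH5, IDH6, cICDH, pICDH and AT5G14590), with log2 differences between −0.06 and 0.21 at 1% for 48 h. IDH3 lay under 6 units on every array, as did IDH-IV, a further isocitrate dehydrogenase among the added genes. Values that dim carry no order, so the differences of these genes are no sign of a steady level. On the side of acetyl-CoA supply, the lipases SDP1 and SDP1L, which release fatty acids from oil, stood at 0.14 and −0.01. AIM1, a multifunctional protein of peroxisomal beta-oxidation, stood at −0.55 ± 0.154 (limma adjusted p = 0.439), and with the letter as a block it was called lower (−0.55, adjusted p = 0.0262).

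Of succinate dehydrogenase, which uses the product succinate, the subunits SDH1-1, SDH1-2, SDH2-1 and SDH2-2 were measured. SDH2-2 stood at −0.65 ± 0.338 (adjusted p = 0.979), a value set by single arrays. Leaving out 1% array F turned it to −1.65, which was called lower, and leaving out 1% array A turned it to 0.35. PPDK, pyruvate orthophosphate dikinase, stood at −0.76 (adjusted p of 1), a value that also moved with single arrays, to −0.05 without 1% array A, −1.47 without 1% array F, −1.26 without air array A and −0.46 without air array B. HPR1, the peroxisomal hydroxypyruvate reductase, stood at −0.71 ± 0.367 (adjusted p = 0.979), and NADP-MDH, a malate dehydrogenase, at −0.80 ± 0.298 (adjusted p = 0.771). None of these 4 passed the test with all arrays.

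**Figure D3:**
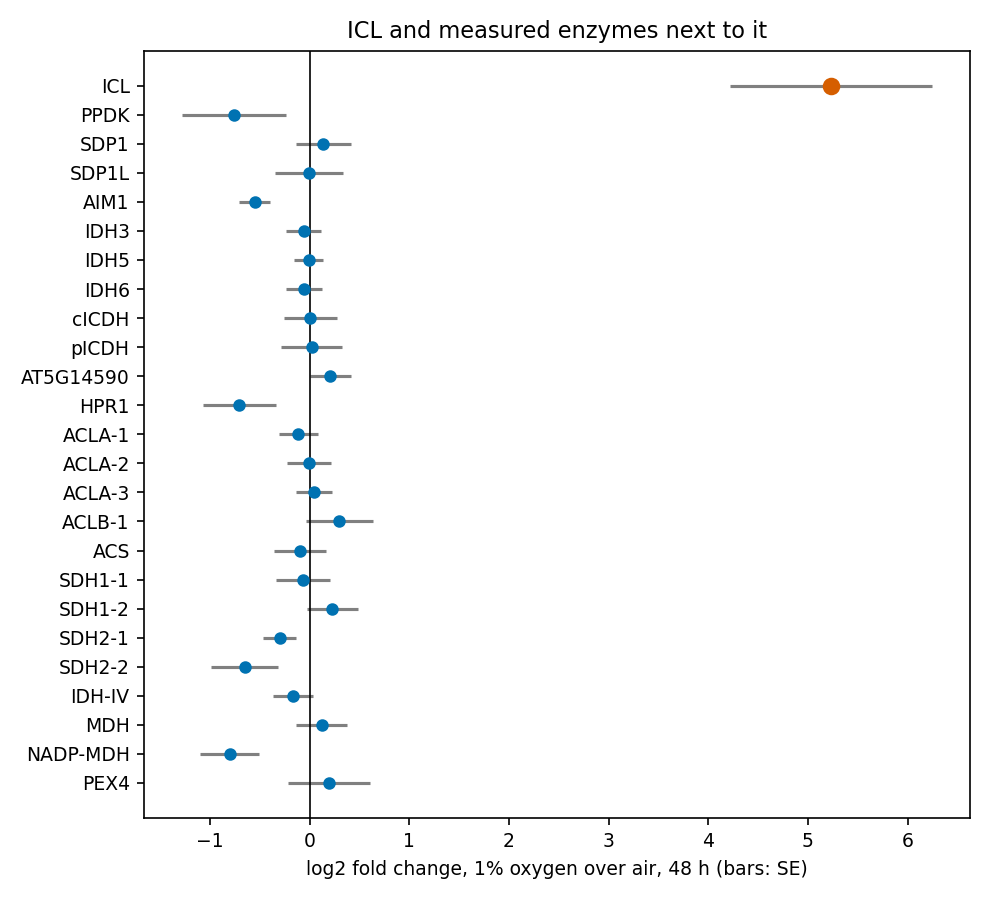
Log2 fold change of 1% oxygen over air at 48 h (log2(signal + 6) scale, bars are SE of the limma fit) for ICL and the 24 other measured genes of the related enzymes. ICL stands at 5.23 and the others between −0.80 and 0.30.

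The low-oxygen response of the same arrays was read from 21 genes known to rise in oxygen-deprived Arabidopsis, of which 13 were measured. These genes were chosen with earlier results of these data known. All 13 were called higher at 1% for 2 h (limma, median log2 difference 4.79 against −0.02 for all probe sets), where 0.34% of all probe sets were called higher. At 1% for 48 h 5 were called (median 1.96, with 0.074% of all probe sets). At 4% 12 were called at 2 h and 3 at 48 h (0.126% and 0.037% of all probe sets), and at 8% 3 and 0 (0.0222% and 0%). With the letter as a block, 9, 6 and 0 were called at 48 h for 1%, 4% and 8%. At 1% for 48 h, leaving out array F of that group gave 11 calls and leaving out its array A gave 0, while any single 4% or air array left out gave 1 or 2, and 8% array B left out gave 3. At 4% it was 8 without either 1% array and 1 without the 4% array of letter B. At 0.5 h 7, 6 and 1 were called at 1%, 4% and 8% (0.0518%, 0.0444% and 0.0148% of all probe sets), and 3, 1 and 1 with the block. ICL passed the test in none of these 6 comparisons of 0.5 and 2 h. Between 48 and 2 h in air, AT4G27450 of the 13 was called higher (1.48, limma adjusted p = 0.0052). AT4G17260 was called lower (−0.74, limma adjusted p = 0.018), where 2.36% and 3.11% of all probe sets were called higher and lower. The call of AT4G27450 was kept when any single air array of 2 or 48 h was left out, and that of AT4G17260 was lost without several of them.

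At 48 h the pairs differed in how far ICL and these genes went. At 1%, letter A had a median log2 difference of 3.13 over the 13 genes and 4.22 for ICL, while letter F had 0.99 and 5.96. In letter A all 13 genes were above air, 11 of them by more than 1, and in letter F 12 of 13 were above air, 6 of them by more than 1. AT4G10270, one of these genes, had 685.9 units in the 1% array A and 104.2 in the 1% array F, against 12.0, 18.4 and 9.55 in air (A, B, F). The exception in letter F was the transcriptional regulator HRA1, with 361.7 units in the 1% array A and 18.3 in the 1% array F, against 36.0, 13.8 and 21.2 in air (A, B, F). Both genes were chosen here after their values were seen. At 4% the list medians were 2.13 (B) and 2.65 (F) beside 4.38 and 3.74 for ICL. At 8% they were 0.28 (A), 0.89 (B) and 0.92 (F) beside 0.47, 1.82 and 4.64 for ICL. The median of the 5 dark and sugar genes stayed between −0.23 and 0.15 in all 7 pairs.

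**Figure D4:**
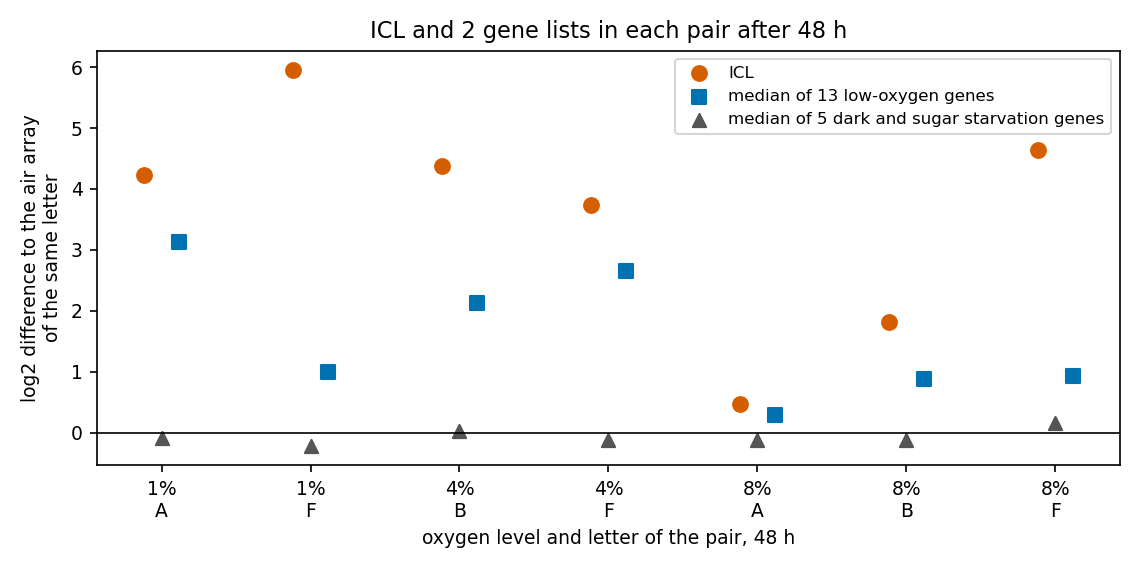
Log2 difference (log2(signal + 6) scale) between each lowered-oxygen array and the air array of its letter at 48 h, for ICL, the median of 13 low-oxygen genes and the median of 5 dark and sugar starvation genes, by oxygen level and letter. ICL exceeds both medians in all 7 pairs, by the most in letter F at 1% (5.96 against 0.99 for the low-oxygen genes).

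The genes most like ICL were sought among 6357 probe sets with 1 gene and a highest group mean of at least 50 units, by Pearson correlation with ICL over the 12 group means of log2(signal + 6). The 12 points share arrays of the same letters, and 3 of them are the 48 h groups of lowered oxygen for which ICL was chosen. The 5 highest were AT3G29970 (0.943), ALDH10A8 (0.90), AT2G47710 (0.886), AT5G66090 (0.881) and AT1G25260 (0.874), against a median of −0.06 over all of them. Over the 28 single arrays these stood at 0.763, 0.623, 0.552, 0.458 and 0.56. Over the 9 groups other than lowered oxygen at 48 h they stood at 0.622, −0.15, 0.73, −0.02 and 0.505.

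AT3G29970 was the highest over the 12 group means and over the 28 arrays, while AT2G47710 was above it over the 9 groups. At 48 h it had 1991 units (A) and 145.0 (F) at 1%, 93.6 (B) and 567.7 (F) at 4%, and 10.5 (A), 24.1 (B) and 89.0 (F) at 8%, against 3.27 (A), 27.9 (B) and 5.45 (F) in air. The 1% and 4% arrays were all above air, while the 8% arrays overlapped it. Its log2 differences were 5.16 ± 0.862 at 1%, 3.96 ± 0.862 at 4% and 1.24 ± 0.771 at 8%, given without a test because likeness to ICL over all 12 groups chose it. At 1% for 2 h it stood at 2.31 ± 0.862, also without a test, with 79.7 against 6.16 units in letter E and 49.6 against 8.28 in letter F, where ICL gave 77.8 against 8.81 and 0.938 against 0.945. ALDH10A8, an aldehyde dehydrogenase, differed far less, by 0.54, 0.44 and 0.17 at 1%, 4% and 8% for 48 h.

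**Figure D5:**
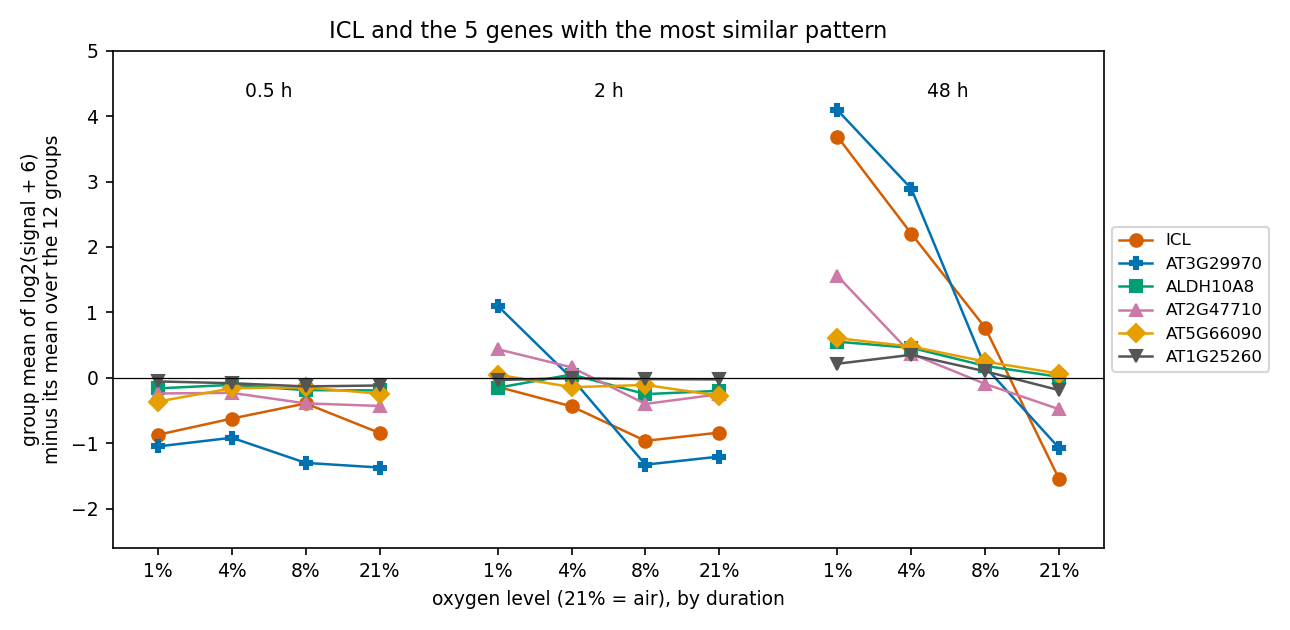
Group means of log2(signal + 6) for ICL and the 5 genes with the highest correlation to it, each minus its own mean over the 12 groups, by oxygen level (21% = air) and duration. All 6 are higher at 1% and 4% than in air at 48 h, with ICL and AT3G29970 moving furthest.

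In the RefSeq annotation the genes next to ICL on chromosome 3 are SGP2, AT3G21710, FOLB3 and APO4. Of these SGP2 was measured, with log2 differences of −0.20 ± 0.787, −0.25 ± 0.787 and −0.15 ± 0.704 at 1%, 4% and 8% for 48 h. None passed the limma test (adjusted p of 1 after rounding in each), and the other 3 genes are not analysed here.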

How the data were processed

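The deposited values are MAS5 signals, a linear intensity per probe set, made by the authors per the submitters' processing notes, and the MAS5 version is not given in the sources used here. The values show that each array was scaled to a trimmed mean of 100 (2% trimmed at each end). This scaling was kept. Of 22810 probe sets, 64 controls were left out, and the platform annotation named 1 gene for 13513, several for 503 and none for 8730. RefSeq TAIR10.1 was used for names and neighbours only, since the array annotation names no build, and no sequence is printed.

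On log2(signal + 6), 1 mean per group was fitted over all 28 arrays with limma 3.58.1 in R 4.3.3 (empirical Bayes with an intensity trend, 16 residual degrees of freedom, two-sided). Within each comparison, p-values were Benjamini-Hochberg adjusted over all 13513, and 0.05 was the threshold. The code was tested on simulated data.

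ICL and the lists were chosen with earlier results of these data known. Named genes were ICL, up to 4 genes per list with the smallest adjusted p over the 9 comparisons with air, measured genes of the glyoxylate cycle, and the 5 genes most correlated with ICL. HRA1, AT4G10270, the isocitrate dehydrogenases, SGP2, and the list genes called in the comparison within air, are given beside these. Same-letter arrays, after removing group means, correlated above 0.1 in 6 of 6 pairs at 0.5 h (0.457 to 0.718). They did so in 12 of 12 at 48 h (0.328 to 0.728) and 5 of 8 at 2 h (−0.117 to 0.689). The letter was thus taken to pair arrays at 0.5 and 48 h. As a block (10 residual degrees of freedom) it was fitted over all durations, 2 h included. The main fit held no letter, so its SEs and p-values leave this pairing out. For ICL at 1% for 48 h the SE was 0.735 with the fixed block, against 1.01 in the main fit. Alternatives were quantile normalization, centring on the array median, a pseudocount of 1.5 or 24, dropping the 40% of probe sets with the lowest mean, empirical Bayes without the trend, only the arrays of the durations compared, all probe sets that are not controls, the letter as a fixed or random block, each array left out, and, added after seeing the data, no arrays of letter F.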

Additional observations from a re-analysis of the deposited data

How the results depend on the processing

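ICL was higher under lowered oxygen at 48 h in every alternative run. Its log2 difference at 1% and 4% was 3.72 and 2.36 with a pseudocount of 24, and ranged over 4.84 to 5.63 and 3.40 to 4.09 when single arrays were left out (1.31 to 2.92 at 8%). The differences at 0.5 and 2 h, each smaller than its SE, changed sign in several alternatives. At 1% for 0.5 h the difference became 0.015 with a pseudocount of 24, 0.28 and 0.049 with the letter as a fixed and a random replicate block, and 0.39 without letter F. At 8% for 0.5 h it became −0.17 with the fixed block and −0.12 without letter F, and at 8% for 2 h 0.26, 0.25 and 0.37 with the fixed block, the random block and without letter F. At 1% for 2 h it was 1.95 ± 0.563 without letter F, with 1 array left at 1% (adjusted p of 1), beside 0.70 with all arrays. Leaving out single arrays gave −1.01 to 0.96, −0.63 to 1.07 and −0.12 to 0.76 at 1%, 4% and 8% for 0.5 h, and −1.10 to 2.50, −0.15 to 0.95 and −1.17 to 0.91 for 2 h. For 48 against 2 h in air the fixed block, which links these durations through letter F alone, gave 1.1. Single arrays left out gave −1.26 to −0.16 there. Genes of all lists called over the 3 oxygen levels numbered 14 at 0.5 h (5 with the fixed block, 8 to 14 without single arrays), 28 at 2 h (21 to 27) and 8 at 48 h. At 48 h they numbered 17 and 22 with the fixed and the random block, 5 with a pseudocount of 24, 0 in a fit of the compared durations only, and 3 to 20 without single arrays. SDH2-2 ranged from −1.65 to 0.35. ICL was not called at 0.5 or 2 h with or without the letter as a block, and the cause of these shifts was not tested. With 2 or 3 arrays a group and no detection calls, values under 6 units carry no order, and ICL in air lay mostly there in letter F.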
